A study of Mus musculus with 12 samples.

Results

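H3K27ac peaks called after 24 h with LG268 were compared directly with those called after 24 h with RA (all-trans retinoic acid), both at 1 µM, in wild-type E14 mouse embryonic stem (ES) cells grown with leukemia inhibitory factor on gelatin. Of the 12 libraries of the series, these are 2, and they hold 27430 of its 76731 peaks: 12472 with LG268 and 14958 with RA. The other lists used here are H3K27ac in the control, with vehicle (dimethylsulfoxide) by the treatment protocol, and with GW3965 at 1 µM for 24 h, and RXR (retinoid X receptor) in the same 4 conditions. Each condition has 1 library per antibody, so a region found in a single list has no replicate check and no treatment was tested against another. Read totals are unknown, and the number of peaks depends on them, so the RA list was cut by Peak Score, the authors' score of a peak, to the 12472 highest peaks and set beside the whole LG268 list. Peaks of the pair that overlapped by at least 1 bp were joined into 15224 regions, and the control list had no part in defining their classes.

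Acetylation of histone H3 at lysine 27 marks active promoters and enhancers. RXR is a nuclear receptor that pairs with other receptors, among them RAR (the retinoic acid receptor), LXR (the liver X receptor) and PPAR (the fatty acid sensing receptors). LG268 is a synthetic RXR agonist and RA is the natural RAR ligand. RXR with PPAR or LXR can be activated through the RXR ligand alone, while RXR with RAR is usually held to need a RAR ligand. RAR with RXR binds direct repeats of a receptor half-site, and a spacing of 5 bases, called DR5, is the classic retinoic acid response element.

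The promoters of 2 RA target genes with acetylation in the RA list and none nearby in the LG268 list show such an element. Rarb encodes RARβ and Cyp26a1 an enzyme that degrades RA. The 250 bases upstream of the RefSeq start site (GRCm38.p6, the same assembly as mm10) follow, 5′ to 3′ on the gene's own strand and ending at the start site, with the DR5 in capitals. They lie at chr14:16575477-16575726 on the minus strand for Rarb and at chr19:37697558-37697807 on the plus strand for Cyp26a1. The upstream sequence of Hoxb1, a homeobox gene of the hindbrain, at chr11:96365508-96365757 on the plus strand, is given as a promoter of the same class in which the search found no direct repeat.
Rarb: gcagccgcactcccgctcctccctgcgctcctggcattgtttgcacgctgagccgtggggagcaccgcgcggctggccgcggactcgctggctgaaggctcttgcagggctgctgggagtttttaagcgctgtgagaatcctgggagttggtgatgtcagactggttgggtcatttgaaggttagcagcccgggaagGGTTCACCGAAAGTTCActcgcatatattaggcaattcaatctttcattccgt
Cyp26a1: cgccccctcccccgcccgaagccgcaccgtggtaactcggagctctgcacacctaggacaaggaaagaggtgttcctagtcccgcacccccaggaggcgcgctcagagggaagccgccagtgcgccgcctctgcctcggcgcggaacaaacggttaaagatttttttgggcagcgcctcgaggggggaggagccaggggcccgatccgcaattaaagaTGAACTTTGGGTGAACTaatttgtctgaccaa
Hoxb1: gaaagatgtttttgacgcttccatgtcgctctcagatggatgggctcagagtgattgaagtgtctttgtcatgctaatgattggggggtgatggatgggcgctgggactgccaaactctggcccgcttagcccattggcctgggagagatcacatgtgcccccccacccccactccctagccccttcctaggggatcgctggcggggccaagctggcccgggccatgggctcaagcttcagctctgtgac

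The search took the consensus half-site AGGTCA, the variant AGTTCA, the variant GGGTCA and the variant GGTTCA, in any pair, on both strands, spaced by 1, 2, 4 or 5 bases (DR1, DR2, DR4 and DR5). In Rarb the match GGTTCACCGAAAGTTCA lay at -53 to -37 from the RefSeq start site. In Cyp26a1 the match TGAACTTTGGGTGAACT, which reads as a DR5 on the other strand, lay at -32 to -16. DR5 matches were found in 29 of 32851 RefSeq promoters (0.0883%). Among promoters matched to a region they were in 2 of 1273 with an RA-only region, namely Rarb and Cyp26a1, in 0 of 1073 with an LG268-only region and in 0 of 5436 with a shared region. DR1 matches were in 5 RA-only (0.393%), 0 LG268-only and 7 shared promoters, and in 54 of all (0.164%). DR2 matches were in 0 RA-only, 2 LG268-only (0.186%) and 3 shared promoters, and in 57 of all (0.174%). DR4 matches were in 0, 0 and 1, and in 22 of all (0.067%). The promoters of Rarg and Stra8, also RA targets with an RA-only promoter region, held none of these repeats in the 250 bases before their RefSeq start sites. The Rarb element lay within the RXR peak of the LG268, RA, control and GW3965 lists, with RXR scores of 37.54, 54.82, 33.01 and 9.96. It fell in the gap between 2 RA H3K27ac peaks, 41 bp from the nearer one. The Cyp26a1 element lay 293 bp from an RA H3K27ac peak. Its nearest RXR peaks were 1725 bp away with LG268, 1771 bp with RA and 1756 bp in the control. The GW3965 list had no RXR peak within 5 kb of it.

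Most acetylated regions were common to the 2 treatments. Of the 15224 regions, 9200 (60.4%, 95% interval 59.6% to 61.2%) were in the LG268 and RA lists, 2942 (19.3%) were LG268 only and 3082 (20.2%) were RA only. The intervals are exact (Clopper-Pearson) and cover counting error only. With the lists in full there were 16936 regions, of which 9872 were shared, 2267 (13.4%) LG268 only and 4797 (28.3%) RA only. At equal length, 675 of the 2942 LG268-only regions (22.9%) overlapped an RA peak that fell below the RA cut. The lowest RA score kept was 4.46, and 2469 LG268 peaks scored below that value, although the scale of scores between lists is not stated. Set beside the other pairs of H3K27ac lists, all cut to the same length, LG268 and RA shared the smallest percentage of regions, at 60.4%. The control shared 66.8% with GW3965, 64.3% with RA and 62.1% with LG268, and GW3965 shared 62.9% with RA and 61.3% with LG268. These pairs have lists in common, and with 1 library each the spread between libraries of 1 treatment is not known.

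Whether a peak had a partner followed its score. Of the highest-scoring 10% of LG268 peaks, 1248 of 1248 overlapped an RA peak, and of the highest-scoring 10% of RA peaks, 1245 of 1248 (99.8%) overlapped an LG268 peak. In the lowest 10% the percentages were 37.0% (34.3% to 39.7%) and 38.9% (36.2% to 41.7%). Peaks within 1 kb of a transcription start site (TSS), called promoter peaks here, had a partner in 84.3% of cases with LG268 and 81.5% with RA, and the other, distal peaks in 49.2% and 51.4%. The best-ranked LG268-only region stood at rank 1514 of its list, with a median rank of 9833 over the class. For RA-only regions the best rank was 996 and the median 9728.

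**Figure D1:**
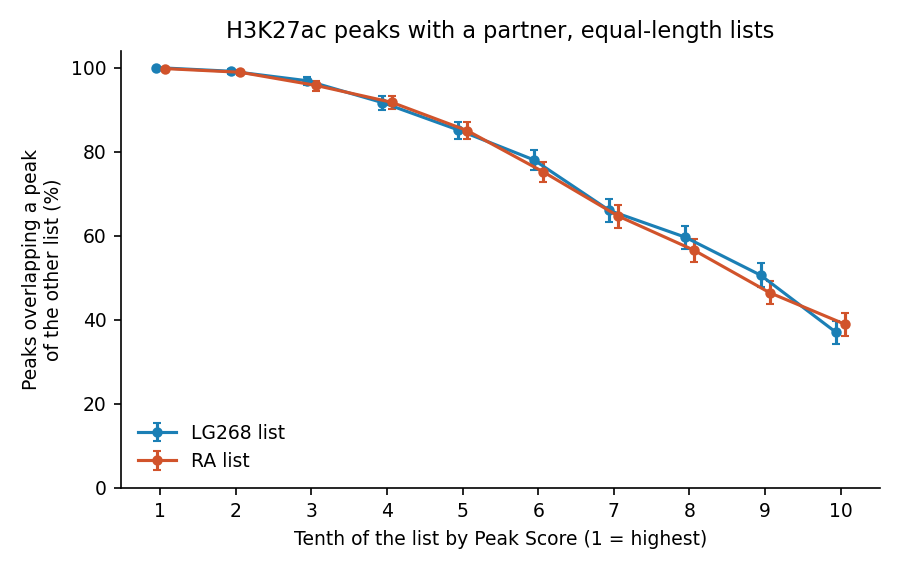
Percentage of H3K27ac peaks (vertical axis) that overlap a peak of the other list by at least 1 bp, in steps of 10% of each list from the highest Peak Score (horizontal axis), for LG268 (blue) and RA (orange) cut to 12472 peaks each. Bars are exact 95% intervals for counting error, and the curves fall together from 100% and 99.8% to 37.0% and 38.9%.

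Promoters made up most of the shared class and a smaller part of the other classes. They were 85.6% (84.9% to 86.3%) of shared regions, 51.7% (49.9% to 53.6%) of LG268-only regions and 59.2% (57.5% to 61.0%) of RA-only regions. The difference between LG268-only and RA-only regions was smaller in the higher-scoring 50% of each list, where promoters were 82.0% and 83.8%, and the full lists gave 47.4% and 53.1%. Regions of a single list were narrower, with median widths of 278.5 bp (LG268 only) and 303 bp (RA only) against 545 bp for shared regions, which join peaks of the 2 lists and are wider by construction. They also lay more often in LINE retrotransposons, at 8.43% and 8.18% against 0.728%, and less often in CpG islands by the annotation, at 12.1% and 15.9% against 26.9%. In bases upstream of the start site, the promoters of the 3 classes were alike in GC content, with medians of 61.6% (shared), 62.4% (LG268 only) and 62.8% (RA only), against 52.4% over all RefSeq promoters.

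**Figure D2:**
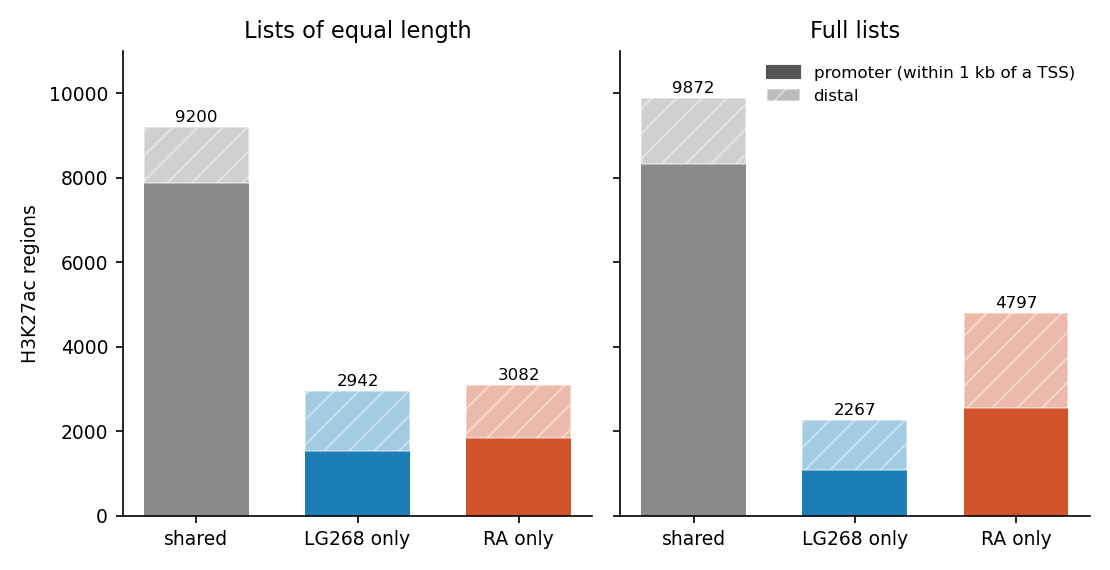
Number of H3K27ac regions (vertical axis) shared by the LG268 and RA lists or found in 1 of them, with the lists cut to equal length (left) and in full (right). Solid bars are promoter regions and hatched bars distal regions, and the RA-only class grows from 3082 to 4797 regions when the RA list is used in full.

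Counted by gene, promoter peaks differed less between the lists than promoter regions, of which 7875 of 11223 were shared. Promoter peaks of either list named 9231 genes, of which 7237 (78.4%, 77.5% to 79.2%) had a promoter peak in each list, 937 (10.2%) with LG268 alone and 1057 (11.5%) with RA alone. Of 1522 LG268-only promoter regions, 545 (35.8%) belonged to a gene whose promoter carried an RA peak at another position, and of 1826 RA-only promoter regions 712 (39.0%) belonged to a gene with an LG268 promoter peak.

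The highest LG268-only promoter regions were at genes that the control and GW3965 lists also marked. In order of score their nearest genes were Focad, Rnf11, Gabpa, Airn, Gbas, 4930405A21Rik, Rfc2, Cdh1, AI597468 and Hsd17b4, with LG268 scores from 16.22 to 13.41 and ranks from 1514 to 2358. Gabpa encodes an ETS factor of nuclear genes for mitochondria, Airn a noncoding RNA of an imprinted cluster, Rfc2 a subunit of the clamp loader of DNA replication, Cdh1 the adhesion molecule E-cadherin, and Hsd17b4 an enzyme of peroxisomal β-oxidation. All 10 overlapped a control peak and a GW3965 peak. An RA peak below the cut overlapped 3 of them, those of 4930405A21Rik, Cdh1 and Hsd17b4, and Gabpa had an RA promoter peak at another position. The Cdh1 region lay in intron 1, 375 bp from the TSS, and scored 13.46 with LG268.

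The highest RA-only promoter regions scored from 22.65 to 17.21 at RA ranks 996 to 2013. Their nearest genes included Rrp15, Mrps16, Specc1, Vezf1, Coa4, Pibf1, Actr1a, Por and Fam168a. Rrp15 takes part in ribosomal RNA processing, Mrps16 is a mitochondrial ribosomal protein, Actr1a is a dynactin subunit, and Por passes electrons to cytochrome P450 enzymes. All 10 overlapped a control peak and 9 a GW3965 peak, the exception being Por. The LG268 list had a promoter peak at another position for 5 of these genes, among them Mrps16, Vezf1, Por and Fam168a. RXR peaks of the LG268 list overlapped the Rrp15 and Por regions, and the RA RXR list the Por region.

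Among distal regions, most of the highest LG268-only ones had an RA peak below the cut. The 10 highest LG268-only distal regions included those nearest to Camta1, B230319C09Rik, Phf12, Fam189a2, Myo18a, Akap7, Mir3063, 9330102E08Rik and Ms4a5, with scores from 12 down to 10.25. Of these, 9 overlapped an RA peak below the cut, which leaves the region near 9330102E08Rik with no RA peak in the full list. The 10 highest RA-only distal regions included those nearest to Gm10406, Plekhb1, Ppp3ca, Apobec3, 1700095A21Rik, Midn, 1700030C10Rik, Msl2 and Spred2, with scores from 17.87 to 12.89 and distances of up to 503125 bp. All 10 of those overlapped a control peak and 8 a GW3965 peak. By number of distal regions within 100 kb, Maml3, a coactivator of Notch signalling, had 6 RA-only regions, 0 LG268-only and 1 shared, and 4 of the 6 overlapped a control peak. No gene had more than 3 LG268-only distal regions, a number that 14 genes reached, among them Ano6, Atp5o, Chd9, Cyp51 and Dst. Tex14, a gene of germ cell bridges, led the shared class with 5 distal regions and had none of the other classes.

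Among RAR target genes, RA-only regions were more frequent than over all genes, shared regions less frequent and LG268-only regions about as frequent. Of all 10501 genes with a region within 100 kb, 24.3% had an RA-only region and 23.1% an LG268-only region, and 12.3% had peaks in the RA list alone and 11.8% in the LG268 list alone. Of 25 RAR targets, 15 had a region. RA-only regions were found at 9 (60.0%), shared regions at 7 and LG268-only regions at 3, and 7 genes had peaks in the RA list alone, among them Cyp26a1, Hoxb1, Meis2, Rarb, Rarg and Stra8. Cyp26b1, a relative of Cyp26a1, had a peak in the LG268 list alone, at -7291 bp from its TSS, with a score of 3.36 at rank 11607. In the full lists 33.6% of 11051 genes had an RA-only region and 16.6% were in the RA list alone, and of 17 RAR targets these were 13 and 9. For LG268 the full lists gave 16.9% of genes with an LG268-only region and 7.05% in its list alone, and 2 and 0 of the 17 RAR targets. The gene lists were drawn up with earlier results of these data known, so the counts are a description.

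The receptor genes and the RA-degrading enzymes are taken in turn. Rarb had 3 RA-only regions. The region at its TSS, chr14:16574862-16575472, scored 11.02 with RA at rank 4736 and was not called with LG268, whereas the control and GW3965 lists had peaks there with scores of 6.99 and 6.93. A second region, at -554 bp by the deposited distance, scored 6.44 with RA, and the third, at -23391 bp, scored 4.48 near the cut. These other 2 were in none of the LG268, control and GW3965 H3K27ac lists. Rarg, which encodes RARγ, had regions at 262 bp and -1196 bp from a TSS that scored 7.32 and 7.45 with RA, of which the first overlapped a control peak. Rara, which encodes RARα, went the other way at 1 site: its promoter region was shared, with scores of 11.24 (LG268) and 10.75 (RA), and a region 2179 bp inside the gene was LG268 only at 6.05. The Cyp26a1 region, in intron 1 at chr19:37698085-37698380, scored 5.43 with RA at rank 10763 and was in none of the other 3 H3K27ac lists.

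Transcription factor genes downstream of RA followed. Hoxb1 had an intron 1 region at 5.22 with RA, rank 11072, and Stra8, a gene induced by RA at entry into meiosis, had one in its intron 1 at 7.39, rank 7943. Neither was called in the LG268, control or GW3965 lists. Meis2, a cofactor of Hox proteins, had a region at 6.31 in intron 7, 43591 bp from its TSS, that overlapped RXR peaks of the LG268 and RA lists and no control RXR peak, and a second at 4.84. In the shared class, 13 regions of RAR targets had a median rank difference of -5.92% of all shared regions, where a negative value is a higher rank with LG268. By more than 25%, 2 of the 13 ranked higher with RA and 2 higher with LG268, beside 12.9% and 13.1% of all shared regions. Zfp703 ranked 8472 with LG268 and 4866 with RA, and Tshz1 12331 and 7270, while Meis1 went the other way at its promoter, at 2685 and 6462. The intron 7 region of Meis1, LG268 only at 8.76, overlapped an RA peak below the cut.

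In PPAR target genes LG268-only regions were the more numerous. Of 16 genes, 13 had a region, 7 (53.8%) an LG268-only region and 2 (15.4%) an RA-only region, beside the 23.1% and 24.3% of all genes. Peaks in the LG268 list alone were at 6 genes (46.2%, beside 11.8% of all genes), among them Acaa2, Angptl4, Fabp3, Plin2 and Slc25a20. With the lists in full 7 of 13 genes (53.8%) had an LG268-only region, beside 16.9% of all genes. An RA-only region was then at 4 (30.8%), near the 33.6% of all genes. In the LG268 list alone were 4 (30.8%), beside 7.05%. Slc25a20, the mitochondrial carnitine carrier, had 2 LG268-only regions at 216 bp and 545 bp from its TSS with scores of 3.84 and 3.14. The first overlapped RXR peaks of the LG268, RA, control and GW3965 lists, and a control H3K27ac peak but no GW3965 one. Acaa2, an enzyme of mitochondrial β-oxidation, had a promoter region at 5.45 with RXR peaks of the LG268, RA and control lists and H3K27ac peaks of the control and GW3965 lists. Plin2, a lipid droplet coat protein, scored 5.06, Fabp3, a fatty acid binding protein, 3.30, and Angptl4, an inhibitor of lipoprotein lipase, 3.43.

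These LG268-only scores were low in their list. Every LG268-only region of a PPAR target ranked 7722, the rank of the Ucp2 region, or lower out of 12472. The higher-scoring 50% of each list were also compared, so that a partner in the lower part no longer counted. Then 1 PPAR target had an LG268-only region and 2 RAR targets had an RA-only region. The share of all genes was not computed at that setting, so these counts stand without a background. Ucp2, a mitochondrial uncoupling protein, had an LG268-only region in intron 2 at 6.05 and an RA-only region in intron 1 at 5.47, neither of which was in the control or GW3965 lists. Pdk4, a kinase that inhibits pyruvate dehydrogenase, had an RA-only region at 4.62. Cpt1a, the carnitine palmitoyltransferase of the outer mitochondrial membrane, had a shared region in intron 1 that ranked 3505 with LG268 and 10164 with RA and overlapped RXR peaks of the LG268, RA and control lists. Klf10, a zinc finger gene, was opposite, at 4779 and 1558.

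**Figure D3:**
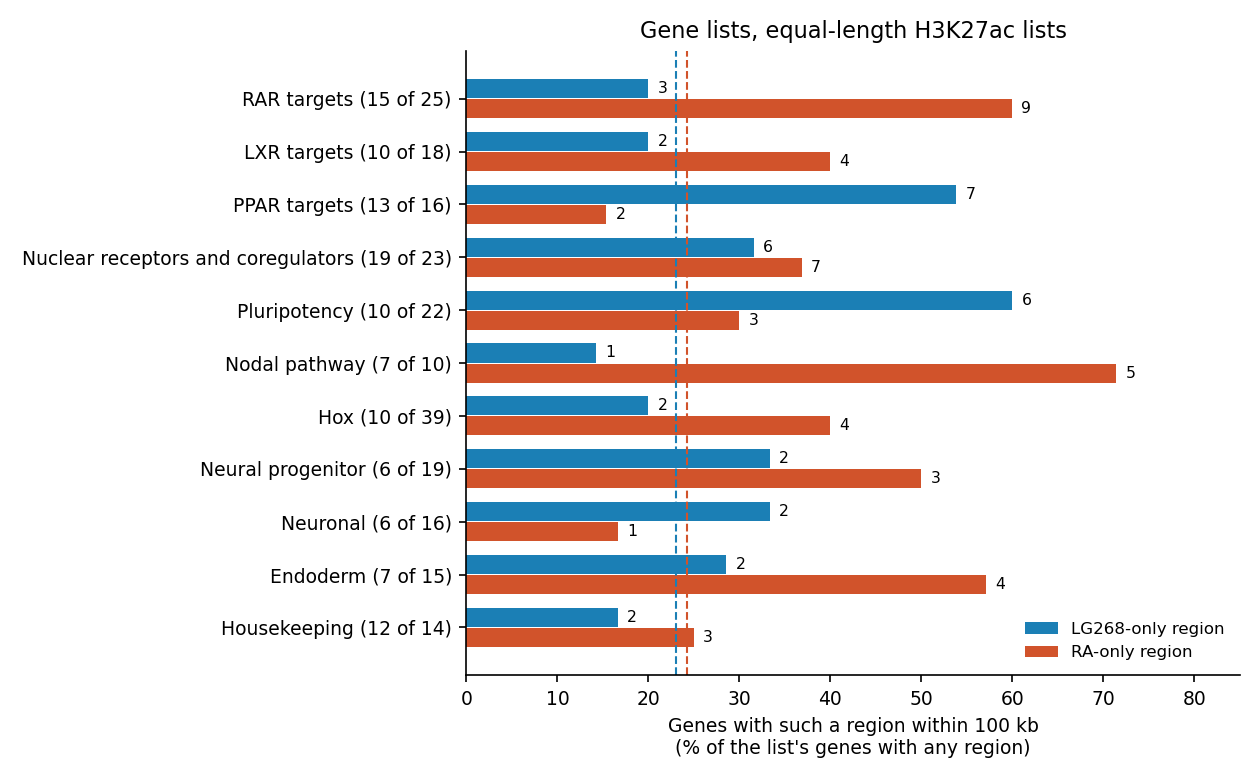
Percentage of the genes of each fixed list (horizontal axis) with an LG268-only region (blue) or an RA-only region (orange) within 100 kb, lists cut to equal length. Numbers at the bars are genes, labels give genes with any region of those in the list, dashed lines are the 23.1% and 24.3% of all genes, and lists with fewer than 6 such genes are left out. RAR targets have 9 genes with an RA-only region and PPAR targets 7 with an LG268-only region.

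LXR target genes were mostly marked in each list. Of 18 genes 10 had a region, and 9 of them a shared one, beside 73.1% of all genes. RA-only regions were found at 4, Abcg1, Scd1, Scd2 and Srebf1, and LG268-only regions at 2, Elovl5 and Lpcat3 of the 10, beside 24.3% and 23.1% of all genes. In the full lists 7 of 12 LXR targets had an RA-only region and 1 an LG268-only region, beside 33.6% and 16.9% of all genes. Scd1 encodes a stearoyl-CoA desaturase. At 19342 bp and 18813 bp into the locus, RA-only regions scored 12.26 and 6.16, in a stretch that the control and GW3965 H3K27ac lists and all 4 RXR lists also marked, and where the LG268 list had no H3K27ac peak. At the promoter of Scd1 the shared region ranked 9858 with LG268 and 4066 with RA. Abca1, a cholesterol exporter, had shared regions at its promoter, ranking 9114 and 5676, and at -36487 bp, ranking 11943 and 6804. Lpcat3, a phospholipid remodelling enzyme, ranked 2482 with LG268 and 8570 with RA at its intron 1 region.

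**Figure D4:**
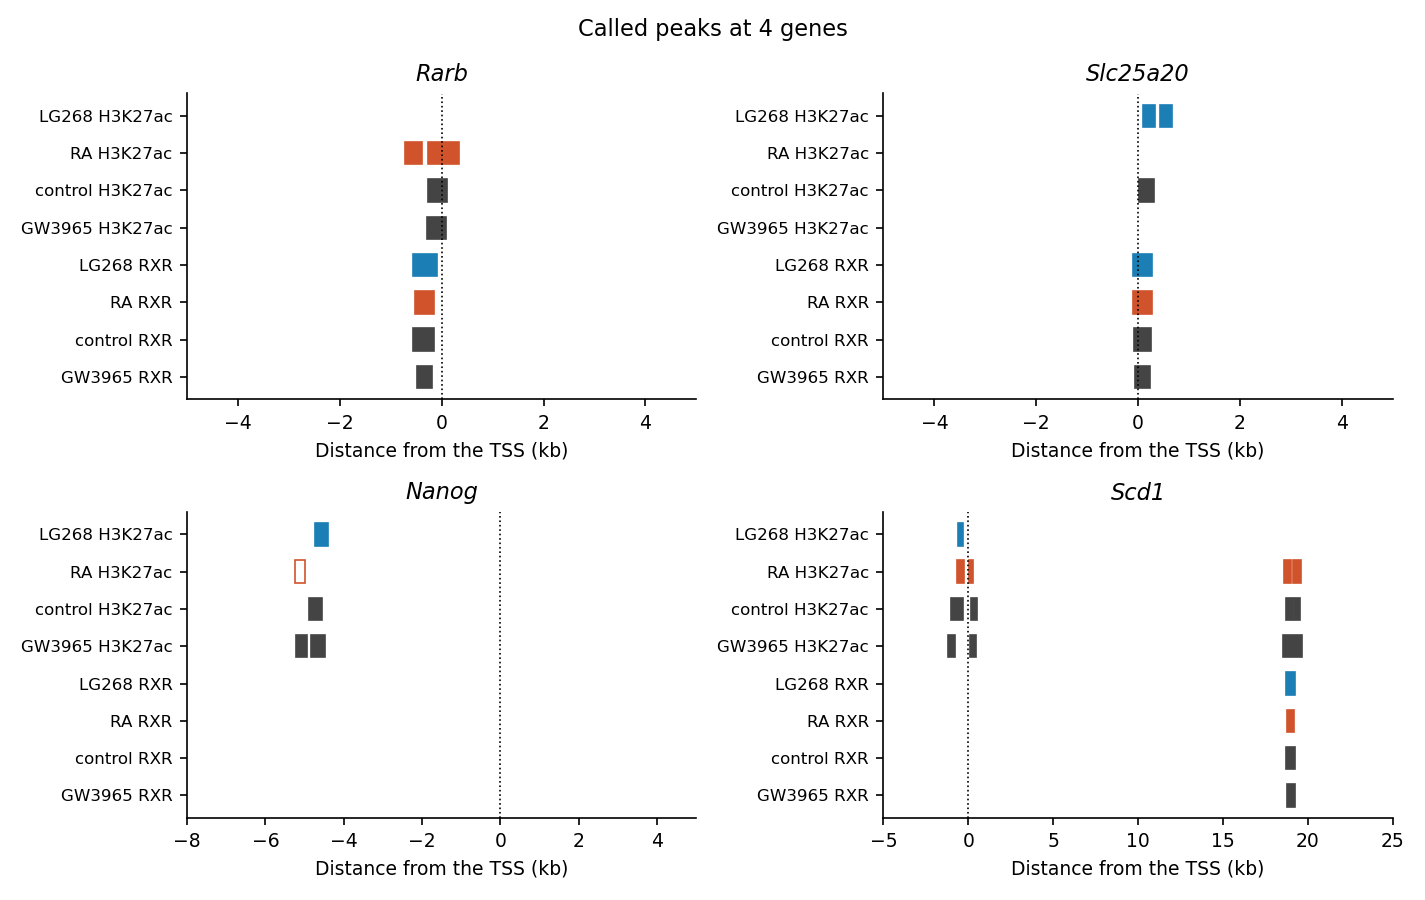
Called peaks (bars) of 8 lists at Rarb, Slc25a20, Nanog and Scd1 by distance from the TSS in kb, with LG268 in blue, RA in orange, control and GW3965 in grey, and an RA peak below the cut as an open bar. RXR peaks lie at Rarb in every list shown, with H3K27ac in the RA, control and GW3965 lists and none in the LG268 list.

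At equal length, receptor and coregulator genes had LG268-only and RA-only regions in nearly equal number, as had all genes. Of 23 genes 19 had a region, 6 (31.6%) with an LG268-only and 7 (36.8%) with an RA-only region. Over all genes these were 23.1% and 24.3%. In the full lists they were 4 and 7 of 19 genes, beside 16.9% and 33.6% of all genes. Ncoa2, a coactivator of nuclear receptors, had an RA-only promoter region at 12.94, rank 3647, beside a shared region at 7.33 (LG268) and 7.4 (RA). Nr2f1, an orphan receptor, had RA-only regions at -4226 bp and -10850 bp that scored 11.28 and 6.12. Its relative Nr2f2 had LG268-only regions at 5.29 and 4.42. Rxrb had an LG268-only promoter region at 7.06, while the shared promoter regions of Rxra and Rxrg ranked 7877 and 12426 with LG268 and 4550 and 6306 with RA. Nr4a1 and Nr4a2, immediate early orphan receptors, each had an LG268-only region, at 8.58 and 8.88, the first with an RA peak below the cut.

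The labelled cell type was checked on pluripotency genes. Of 22 genes, 9 had a peak within 100 kb in the LG268 list and 10 in the full RA list. The longer control and GW3965 lists (21418 and 17759 peaks) marked 17 and 15. Pou5f1, Klf2 and Esrrb had peaks in the control and GW3965 lists and none with LG268 or RA, while Prdm14, Tdgf1 and Dppa5a had none in any of the 4. What part the length of the lists has in this was not tested. Between LG268 and RA at equal length, 10 genes had a region, 6 an LG268-only and 3 an RA-only region, beside the same 23.1% and 24.3% of all genes. In the full lists these were 5 (45.5%) and 6 (54.5%) of 11 genes, beside 16.9% and 33.6% of all genes.

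At Nanog, a core pluripotency gene, the region at -4566 bp scored 8.73 with LG268 at rank 4981 and was in the control and GW3965 lists. The nearest RA peak, below the cut at 4, did not overlap it. Sox2, its partner in the core network, had a region of each class: an LG268-only region scoring 4.72 at -680 bp, an RA-only region scoring 8.12 at 14027 bp, and 2 shared regions. Lin28a, which blocks maturation of let-7, had an LG268-only region at 7.29 in intron 1, and Klf4, a zinc finger factor of naive cells, a weaker one at 2.31. In the shared class, Klf5 ranked 6913 with LG268 and 2600 with RA, and Tbx3 11710 and 5551. Utf1 and Sall4 were opposite, at 5597 and 11712 and at 2092 and 5489. Tfcp2l1, a factor of naive cells, had an RA-only promoter region at 4.79 that overlapped neither a control nor a GW3965 peak.

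Genes of other lineages had few regions. Their counts at equal length stand beside 23.1% of all genes with an LG268-only and 24.3% with an RA-only region. Of 39 Hox genes 10 had a region, 4 with an RA-only region (Hoxa2, Hoxb1, Hoxb2 and Hoxc4) and 2 with an LG268-only region (Hoxb7 and Hoxd3). The Hoxa2 region, at -10482 bp with an RA score of 5.26, overlapped RXR peaks of the LG268 and RA lists and no control RXR peak. A shared region of Hoxb3 ranked 11255 with LG268 and 4167 with RA. Of 15 endoderm genes 7 had a region, 4 RA only (Col4a2, Foxa1, Foxa2 and Lamb1) and 2 LG268 only (Sox7 and Sox17). The pioneer factor genes Foxa1 and Foxa2 scored 5.86 and 5.16 with RA and were in none of the other 3 H3K27ac lists. Of 10 Nodal pathway genes 7 had a region and 5 an RA-only region, among them Foxh1, Skil, Smad3 and Smad7, at scores from 5.66 to 7.53. Of 19 neural progenitor genes 6 had a region, 2 LG268 only and 3 RA only, and of 16 neuronal genes 6, 2 and 1. Regions were found at 3 of 13 primed epiblast genes, 1 of 10 mesoderm genes, 2 of 11 trophoblast genes and 1 of 10 genes of the two-cell-like state. Housekeeping genes had a region at 12 of 14 and a shared one at 11, with 2 LG268 only and 3 RA only. With the lists in full, RA-only regions were at 7 of 12 Hox, 6 of 8 endoderm and 6 of 8 Nodal pathway genes. They were at 5 of 7 neural progenitor, 5 of 7 neuronal and 5 of 12 housekeeping genes, beside 33.6% of all genes. LG268-only regions, in the same order, were at 2, 2, 1, 2, 2 and 2 genes, beside 16.9% of all genes.

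At shared regions the score order was compared by rank among the 9200, so that no scale is assumed. A region counted as ranking higher with a treatment if its rank differed by more than 25% of all shared regions. By that rule 1186 regions (12.9%) ranked higher with RA and 1201 (13.1%) higher with LG268, and the median absolute difference was 13.7% of the ranks. The Spearman correlation of the scores was 0.687 over these regions, which share chromatin, cell type and annotation. Promoters and distal regions gave alike numbers: 13.0% and 12.3% ranked higher with RA, 13.3% and 11.8% with LG268.

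The largest rank differences were at promoters of genes with varied roles. Higher with LG268 were Fam187b, Ppp2r2a, Tet3, Chchd5, Yipf1, Nr4a3, Mt1, BC003331, 4933421O10Rik and Acyp1. The Fam187b region scored 21.61 with LG268 and 5.11 with RA, at ranks 707 and 8773 of the 9200. Tet3, which oxidises methylcytosine, scored 18.46 and 4.75, and Mt1, a metallothionein, 15.48 and 5.75. Nr4a3, an orphan receptor, scored 13.8 and 4.82 at -8211 bp, the only distal region of the 10. Higher with RA were Xrcc4, Hirip3, Lamtor3, Prpf40b, Nampt, 1700025G04Rik, Zfp354c, 1700028E10Rik, Gpam and Tsta3. Xrcc4, of DNA end joining, scored 2.84 with LG268 and 21.1 with RA, at ranks 9107 and 1209 of the 9200. Nampt, of NAD salvage, scored 3.75 and 18.76, and Gpam, of glycerolipid synthesis, 5.09 and 23.06. All 20 of these regions were also in the control and GW3965 lists.

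**Figure D5:**
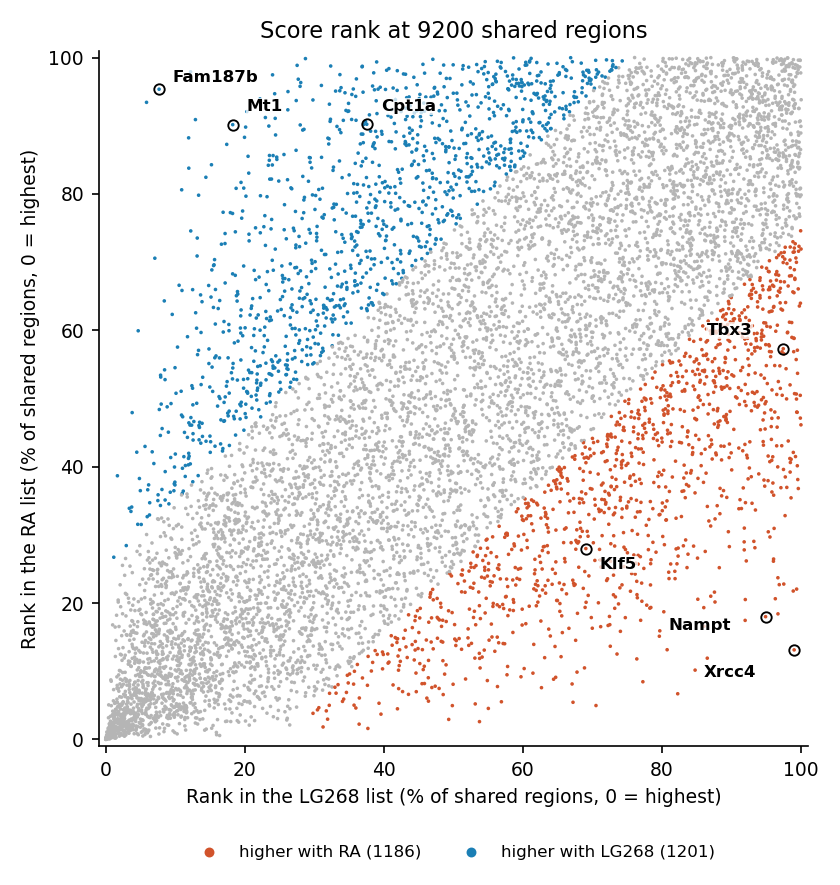
Score rank of each of the 9200 shared regions in the LG268 list (horizontal axis) and the RA list (vertical axis), as a percentage of shared regions with 0 the highest score. Orange points (1186) rank higher with RA by more than 25% and blue points (1201) higher with LG268, and 7 named genes are circled.

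The same regions were also ranked in the control and GW3965 lists. Among 8806 shared regions that the control and GW3965 lists also held, those ranking higher with RA had median ranks of 78.9% with LG268, 38.3% with RA, 57.6% in the control and 57.8% with GW3965. Those ranking higher with LG268 had 37.8%, 80.0%, 56.8% and 58.0%. The regions were chosen for a high rank in 1 list and a low rank in the other, so middle ranks in the control and GW3965 lists follow from the choice. The control rank was nearer to LG268 at 51.2% of the regions higher with RA, and nearer to RA at 48.8%.

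The control list marked most regions of each class. For these overlaps the control and GW3965 lists were used uncut, with 21418 and 17759 peaks, and the part of their length was not tested. Distal shared regions overlapped a control peak in 1259 of 1325 cases, LG268-only ones in 56.2% (53.6% to 58.8%) and RA-only ones in 60.2% (57.4% to 62.9%). GW3965 peaks overlapped 48.9% of LG268-only and 46.4% of RA-only distal regions. At promoters, 12.9% of LG268-only and 10.8% of RA-only regions were in neither the control nor the GW3965 list, and at distal sites 32.3% and 30.2%. Regions in 1 of the 4 lists, with no RA peak below the cut, numbered 619 for LG268 (21.0% of its class) and 576 for RA (18.7%). Genes near them were 4.83% and 4.54% of the 10501. Of the 15 RAR targets with a region, 6 had one in the RA list alone of 4 (Cyp26a1, Hoxb1, Meis2, Rarb, Rarg and Stra8) and 1 in the LG268 list alone (Cyp26b1). Of the 13 PPAR targets, 4 had one in the LG268 list alone of 4 (among them Angptl4, Slc25a20 and Ucp2) and 1 in the RA list alone (Ucp2). The highest of these regions, leaving out simple repeats and satellites, lay nearest to Mir1895 (8.89) and E330017L17Rik (8.68) with LG268 and to Lrrc7 (12.17, in a LINE element 114408 bp from the TSS) and Cdc42bpg (11.51) with RA. This class, and the genes named from it, were chosen after the values were seen.

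At equal length, RXR peaks overlapped a larger percentage of RA-only than of LG268-only distal regions. RXR peaks of the LG268 list overlapped 10.6% of distal shared regions, 3.73% (2.81% to 4.85%) of LG268-only and 6.85% (5.51% to 8.39%) of RA-only regions. RXR peaks of the RA list gave 8.98%, 2.89% (2.08% to 3.90%) and 6.37% (5.08% to 7.86%), and those of the control 6.57%, 2.04% and 4.78%. With the lists in full the LG268-only and RA-only values were closer, at 3.10% (2.19% to 4.25%) and 4.71% (3.87% to 5.67%) for LG268 RXR, 2.60% and 4.27% for RA RXR, and 2.10% and 2.98% for control RXR. At promoters of the equal-length lists they were 1.91% and 2.25% for LG268 RXR and 1.77% and 2.19% for RA RXR. The regions of 1 list alone of 4 had an LG268 or RA RXR peak in 14 of 619 cases with LG268 (2.26%, 1.24% to 3.77%) and 43 of 576 with RA (7.47%, 5.46% to 9.92%). Of the 43, 20 had no control RXR peak, and of the 14, 5. Leaving out simple repeats and satellites, the highest-scoring lay nearest to Cox8c (9.82) and Plxnc1 (8.68) with RA and Inpp5a (6.54) and Camk1d (6.25) with LG268. Lower among the 43 were regions of gene list members Meis2, Rarb, Hoxa2, Foxa1 and Ncoa3, and a region 12320 bp from Ier2. Of the regions named here, those of Cox8c, Plxnc1, Inpp5a, Rarb and Ncoa3 overlapped a control RXR peak, and the others did not. By the annotation the Cox8c region lay in an LTR retrotransposon, and the Plxnc1 and Foxa1 regions in SINE retrotransposons. The 2 RXR libraries from day 8 of differentiation, induced with 5 µM RA by the growth protocol, had peaks at 1.90% and 2.46% of LG268-only and at 4.06% and 5.33% of RA-only distal regions. The 2 from day 16 gave 1.83% and 1.76%, and 3.42% and 3.26% at equal length, but 2.01% and 1.93%, and 1.96% and 1.87% in full lists. Without simple repeat, satellite, low-complexity and rRNA regions, the day 16 equal-length values were 1.07% and 1.00%, and 1.87% and 1.71%. Those of day 8 were then 1.29% and 1.86%, and 2.60% and 3.90%. Control RXR peaks then overlapped 3.91% of distal shared, 1.36% of LG268-only and 3.25% of RA-only regions. None of these differences was tested.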

How the data were processed

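The authors' deposited lists hold peaks called per library and annotated with the nearest gene, distance to TSS and location class, on mm10 per the file headers. Tools listed in the submitters' processing notes are MACS2 2.0.10, HOMER 4.2 and BWA 0.6.0, with the builds mm9 and mm10, none with a role. Peak Score is the authors' score per peak. Its scale across lists is not given in the sources used here, so it was used for order within a list. No read totals are given, so depth is unknown.

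Lists were cut to 12472 peaks by score, with 7 of 23 tied RA peaks kept at the cut in genome order. Overlapping peaks (1 bp) were joined, and a region took the annotation of its highest peak, which for shared regions was the highest LG268 peak. For counts of genes, a gene was the nearest gene within 100 kb, while a region named by its nearest gene could lie farther away. Ranks are places in the 12472-peak lists unless said to be of the shared regions. No test was run between treatments, each with 1 library. Intervals are exact (Clopper-Pearson, 95%).

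The region classes and the 15 gene lists were chosen with earlier results of these data known. Genes were named by a rule: nearest genes of the 10 highest regions of a single list, promoter and distal apart, the 10 highest shared regions, the 10 largest rank differences each way, the 5 genes with most distal regions of a class, and members of the gene lists. Simple repeat, satellite, low-complexity and rRNA regions were left out of these picks. The 10 highest shared regions, led by 6820431F20Rik, Rdm1 and Atp6v0c, are not described further. Promoter sequences came from RefSeq GRCm38.p6. The joining of regions was tested on simulated data. Scripts ran in Python 3.11.15, with tables in pandas 2.3.3 on numpy 2.4.6, intervals from scipy 1.17.1 and plots from matplotlib 3.10.9. Some genes that the rule names are not reported here.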

Additional observations from a re-analysis of the deposited data

How the results depend on the processing

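No paired analysis was possible because the 2 treatments compared have 1 library each, and the replicate numbers of days 8 and 16 enter no comparison. In the higher-scoring 50% of each list there were 4648 shared, 1525 LG268-only and 1546 RA-only regions, fewer by construction. RA-only regions numbered 4797 in the full lists and 1981 with peaks within 1 kb joined. Other overlap rules, leaving out repeats and breaking ties in reverse kept the counts of regions within 1.5 times.

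Promoter shares of shared, LG268-only and RA-only regions were 89.3%, 58.9% and 65.5% with promoters within 5 kb, 84.3%, 47.4% and 53.1% in full lists, 91.5%, 82.0% and 83.8% in the higher-scoring 50%, 86.5%, 61.2% and 65.6% with 50% reciprocal overlap, and 84.6%, 41.2% and 47.8% with peaks within 1 kb joined. In each of these the share was highest for shared and lowest for LG268-only regions.

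RAR targets with an LG268-only and an RA-only region were 1 and 2 in the higher-scoring 50%. PPAR targets with an LG268-only region were then 1, and those with an RA-only region 0, or 4 in full lists. For the higher-scoring 50% the share of all genes was not computed. Rank differences over 10% were met by 2771 regions higher with RA and 2778 higher with LG268, and differences over 50% by 176 and 179.

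Control peaks overlapped distal LG268-only and RA-only regions in 51.5% and 53.9% (full lists), 66.3% and 69.7% (within 1 kb) and 92.3% and 91.6% (higher-scoring 50%). For LG268 RXR peaks these were 6.97% and 12.2% within 1 kb and 10.9% and 19.5% in the higher-scoring 50%, with 3.10% and 4.71% in full lists and RA-only regions at 5.45% without repeats. For RA RXR peaks the values in the same order were 5.56% and 11.2%, 9.49% and 16.7%, 2.60% and 4.27%, and 2.15% and 4.88%. The tie order, the 1 kb joining for promoters and genes, and repeats left out of RXR overlaps were chosen after seeing the data. The cause of these shifts was not tested. With no read totals, absence from a list cannot be told apart from lower depth.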
